A study of Mus musculus with 8 samples.

Results

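Axon guidance ligands and receptors were followed in nuclei of the mouse iris, as the 68 genes among the 22873 in the deposited tables whose symbols name a semaphorin of classes 3 to 7 (20 genes), a plexin (9), a neuropilin (2), an ephrin-A (5) or ephrin-B (3), an EphA (9) or EphB (5) receptor, a Slit (3), a Robo (4), a netrin (3), or an Unc5 receptor or Dcc (5), leaving out antisense transcripts. By these names 34 were ligands and 34 were receptors. The choice used gene names only, not measured values. The study compared irises at rest with irises whose pupils had been held wide or narrow, by counting the RNA molecules (UMIs, unique molecular identifiers) of single nuclei. Each of the 8 libraries pooled 5 or 6 irises of albino female mice 6 to 8 weeks old, with the genotype WT in the labels, and so gives 1 value for several animals. The 3 untreated libraries came from mice given no drug. The 2 dilated libraries came from mice given 5% phenylephrine, an agonist of alpha-adrenergic receptors, with 1% cyclopentolate, a blocker of muscarinic receptors, and kept in the dark, and the 3 constricted libraries from mice given 5% pilocarpine, an agonist of muscarinic receptors, and kept in the light, each for 6.5 hours. Drugs and lighting were changed together and cannot be told apart. The methods call the libraries of a condition independent biological replicates and say that they were handled in several batches, but do not say which library was in which batch.

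Axon guidance cues were named for steering nerve fibres, but the same ligands and receptors act between cells of many tissues. Slit proteins are secreted and bind Robo receptors, netrins bind Dcc and Unc5 receptors, semaphorins bind plexins, with neuropilins as co-receptors for the secreted class, and ephrins are membrane-bound ligands of Eph receptor tyrosine kinases. The iris holds a radial dilator muscle driven by sympathetic nerves, and a circular sphincter muscle driven by parasympathetic nerves, both innervated throughout life.

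The tables held 34357 nuclei and 109565284 UMIs, with 5189437 to 25136427 UMIs per library, in 10 deposited cell types: dilator muscle (11606 nuclei), iris pigment epithelium (iris PE, 8704), stroma 2 (6763), stroma 1 (2315), ciliary body epithelium (CBE, 1295), ciliary body (CB, 1291), sphincter 1 (1011), sphincter 2 (712), leukocytes (387) and endothelial cells (273). The deposited names were checked against marker genes in the untreated libraries. The melanocyte list summed to at least 31199 CPM (UMIs of a gene per 1000000 UMIs of a library's nuclei of that cell type) in stroma 1. The fibroblast list summed to at least 3700 CPM in stroma 2, and the endothelial list to at least 7442 CPM in endothelial cells. These sums are given for the named cell type alone, so they do not show how far the lists separate the cell types. The list of 4 pigmented and ciliary epithelium genes was higher in CB, which the study describes as not epithelial, at 7705 to 8822 CPM, than in CBE (1858 to 2448) or iris PE (2508 to 2801). Of its genes, Slc4a4 made up at least 6045 CPM in CB, and Zic1 was at least 523 CPM in CBE and at most 19.8 CPM in CB. The deposited names are used as given. Libraries shared cell barcodes: untreated 1 and dilated 1 had 63 in common, 4.26% of the smaller library, and 400 nuclei in all carried a barcode found in another library. Removing them left 16 calls, against 15 with them, in the comparison of dilated with untreated irises below.

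All values of level are CPM within one cell type, so they compare one gene between cell types or conditions and not 2 genes with each other. In the untreated libraries 54 of the 68 members had at least 20 UMIs in the cell type where their mean level was highest, 12 members had 20 or more in all 10 cell types, and 1 (Ntn5) had none in any cell type. Of the 54, 12 were highest in stroma 2, 11 in endothelial cells, 6 in CB, 5 in stroma 1, 4 each in sphincter 1, iris PE, CBE and leukocytes, and 2 each in dilator and sphincter 2. For 29 of the 54 the 3 untreated values in the leading cell type did not overlap those in the next. These counts were not made over all genes, so they are not read as a trait of the members. Means in endothelial cells rest on few nuclei, 12 to 65 per library. The cell types were made from the same counts, so their differences are given as a description without a test.

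**Figure D1:**
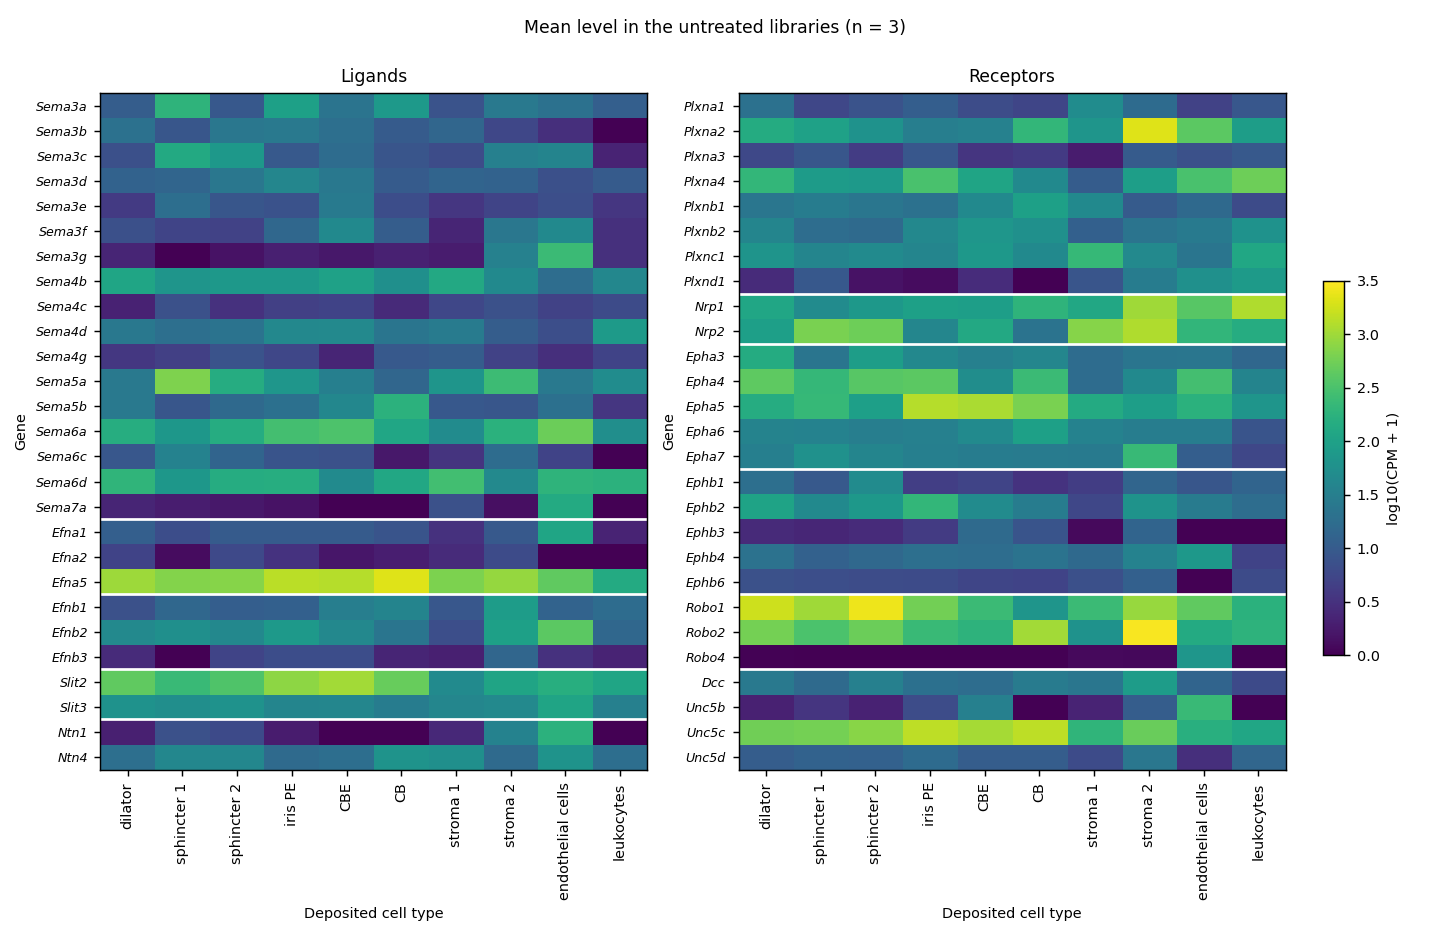
Mean level of each member in the 3 untreated libraries, as log10(CPM + 1), for 27 ligands (left) and 27 receptors (right) with at least 20 UMIs in their leading cell type. Columns are the 10 deposited cell types and white lines separate families; Plxna2 and Robo2 stand out in stroma 2, Robo4 in endothelial cells and Robo1 in dilator and sphincter 2.

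Slit2 and the Robo receptors had their highest levels in different cell types. Slit2 was highest in CBE, at 1033 ± 54.5 CPM (SD, n = 3 here and for all untreated means), and next in iris PE at 810 ± 64.7, with the lowest level in stroma 1 at 45.6 CPM. The CBE and iris PE values did not overlap. Slit3 had its highest mean in endothelial cells, 109 ± 57.5 CPM from 34 UMIs, and its range overlapped that of sphincter 2. Robo1 was highest in sphincter 2 at 2567 ± 120 CPM, followed by dilator at 1701 ± 43.2, sphincter 1 at 1013 ± 52.9 and stroma 2 at 916 ± 25.6, and lowest in CB at 64.9. Robo2 led in stroma 2 at 2962 ± 250 CPM, 2.86 times its next level of 1035 ± 284 in CB. The lowest Robo1 level and the second highest Robo2 level thus lay in the same cell type, CB. Robo4, the endothelial member of the family, was at 68.2 ± 10.1 CPM in endothelial cells, and at most 0.24 CPM elsewhere.

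Among netrins and their receptors, Ntn1 was highest in endothelial cells at 177 ± 51.8 CPM, 5.13 times stroma 2. Ntn4, a netrin of basement membranes, gave means of 62.1 ± 50.7 CPM in CB and 61.6 ± 2.94 in endothelial cells, and its 3 CB values of 118, 47.5 and 20.3 CPM spread too widely to rank the 2 cell types. Unc5b, an endothelial netrin receptor, was 7.28 times higher in endothelial cells than in CBE. Unc5c reached 1438 ± 171 CPM in CB and 1422 ± 68.3 in iris PE, which overlapped, and Dcc was highest in stroma 2 at 84.2 ± 0.841 CPM.

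Among semaphorins, the leading cell type differed from member to member. Sema5a was highest in sphincter 1 at 663 ± 57.1 CPM, 2.67 times stroma 2, and the secreted Sema3a and Sema3c also led there, at 190 ± 17.6 and 134 ± 27.0 CPM. Sema6c had its highest mean in sphincter 1 at 34.5 ± 16.6 CPM, overlapping stroma 2. Sema5b stood in CB at 176 ± 37.1 CPM, 4.39 times CBE. Sema7a was at 138 ± 29.9 CPM in endothelial cells, 21.4 times stroma 1, and Sema3g, a secreted semaphorin of vessels, at 244 ± 112 CPM, 7.38 times stroma 2. Sema6a, the semaphorin with the most UMIs (8123), was highest in endothelial cells at 515 ± 139 CPM. Sema6d led in stroma 1 at 273 ± 45.1 CPM. Sema3d in iris PE, Sema3e in CBE and Sema4d in leukocytes had the highest means, each overlapping the next cell type.

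Plxna2, a receptor of class 6 and, with neuropilins, class 3 semaphorins, was at 2120 ± 77.7 CPM in stroma 2, 5.17 times its next level in endothelial cells. Plxna1 was highest in stroma 1 at 50.0 ± 1.98 CPM, 2.62 times dilator, and Plxnc1, the Sema7a receptor, also in stroma 1 at 223 ± 7.64 CPM. Plxna4 was highest in leukocytes at 540 ± 66.6 CPM. Plxnb1 led in CB at 97.7 ± 16.1 CPM, and Plxnd1 had its highest mean in leukocytes at 79.9 ± 46.2 CPM, overlapping endothelial cells. The neuropilins differed in place: Nrp2 was highest in stroma 2 at 1214 ± 60.3 CPM and next in stroma 1 at 731 ± 18.4, whereas Nrp1 was at 1201 ± 126 CPM in leukocytes and 1007 ± 188 in stroma 2, which overlapped.

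Among ephrins and Eph receptors the leading cell type also differed between members. Efna5 was highest in CB at 2148 ± 418 CPM, followed by iris PE at 1390 ± 35.8, and Epha5, one of its receptors, was highest in iris PE at 1303 ± 136 CPM and CBE at 1127 ± 32.5, whose ranges overlapped. Epha6 had its highest mean in CB, 95.1 ± 53.8 CPM, overlapping CBE. Epha3 led in dilator at 141 ± 9.02 CPM, 1.61 times sphincter 2, whereas Epha4 did not separate dilator (430 ± 12.97 CPM) from iris PE (408 ± 33.5). Epha7 was at 225 ± 18.8 CPM in stroma 2, 3.85 times sphincter 1. Ephb2 led in iris PE at 205 ± 29.2 CPM, 1.93 times dilator. Ephb1 had its highest mean in sphincter 2 and Ephb3 in CBE, each overlapping the next cell type. Efnb2, an ephrin of arterial endothelium, was highest in endothelial cells at 416 ± 138 CPM, 4.37 times stroma 2, and Efna1 was 11.0 times higher in endothelial cells, at 115 ± 57.2 CPM, than in dilator.

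Of the remaining members with enough UMIs, Efnb1 was highest in stroma 2 at 84.9 ± 8.73 CPM, 2.26 times CB, and Ephb4, a receptor of venous endothelium, in endothelial cells at 73.5 ± 14.2 CPM, 2.09 times stroma 2. Sema4c, Plxna3, Ephb6, Efna2 and Efnb3 in stroma 2, Sema4b and Sema4g in stroma 1, Sema3f in endothelial cells, Sema3b in iris PE and Plxnb2 in CBE had the highest means with ranges that overlapped the next cell type, as did Unc5d in stroma 2. The 14 members under 20 UMIs in their leading cell type, Sema4a, Sema4f, Sema6b, Plxnb3, Efna3, Efna4, Epha1, Epha2, Epha8, Epha10, Slit1, Robo3, Ntn5 and Unc5a, were not ranked.

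With dilation, the receptors Robo2 and Plxna4 fell in dilator muscle, by 3.23-fold and 2.87-fold, and Robo2 fell by 2.97-fold in sphincter 2. Netrin 4, the netrin receptor Unc5d, Plxnc1 and Robo1 rose in dilator, and the secreted ligands Sema3g, Slit3 and Ntn4 rose in stroma 2. The comparison was made in each cell type on the summed UMIs of each library, with edgeR's quasi-likelihood test and Benjamini-Hochberg adjustment over all genes tested in that cell type. A gene was called when its adjusted p was under 0.05 and its log2 fold change exceeded 0.6 in size. Of 331 tests over 59 members, 15 were called, 8 higher and 7 lower, or 4.53%, against 3.34% called over all genes in the 10 cell types. At an unadjusted p under 0.05 there were 74, or 22.4%, against 13.1% of all genes. These included 22 of 53 members in stroma 2 (11.7% of all genes) and 16 of 52 in dilator (28.3%). The difference between these shares was not tested. Members were not tested where their counts were low, and 9 members were tested in no cell type (Sema4f, Sema6b, Plxnb3, Efna3, Epha8, Robo3, Robo4, Ntn5 and Unc5a). In dilator 8 of the 52 members tested were called, 4 higher and 4 lower, 15.4% against 13.3% of all 15395 genes tested there (7.2% higher and 6.14% lower). Semaphorins gave 1 call in 89 tests, plexins 4 in 53, Robos 3 in 19, netrins 2 in 9, Unc5 receptors and Dcc 3 in 23, Slits 1 in 18 and EphA receptors 1 in 46, and ephrins, EphB receptors and neuropilins had none. The median log2 fold change of the members tested in dilator was 0.00, against 0.02 over all genes there. All 15 calls had the same sign in each of the 6 pairs of a dilated with an untreated library, and 15 also had it within both runs of library numbers in the labels (2 to 4, and 15 to 18). The meaning of these numbers is not stated in the labels. Both sets of signs come from the libraries that made the calls, so they describe the calls and add no support. They were not counted over all called genes. With the runs of library numbers as a block in the fit, the count was 28, which included all 15. Constricted 2 (library number 13) was a further run of its own in that fit, so it adds nothing to blocked comparisons with constricted irises. The share of all genes called in the blocked fit is not given here, so 28 is not to be set against 3.34%.

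**Figure D2:**
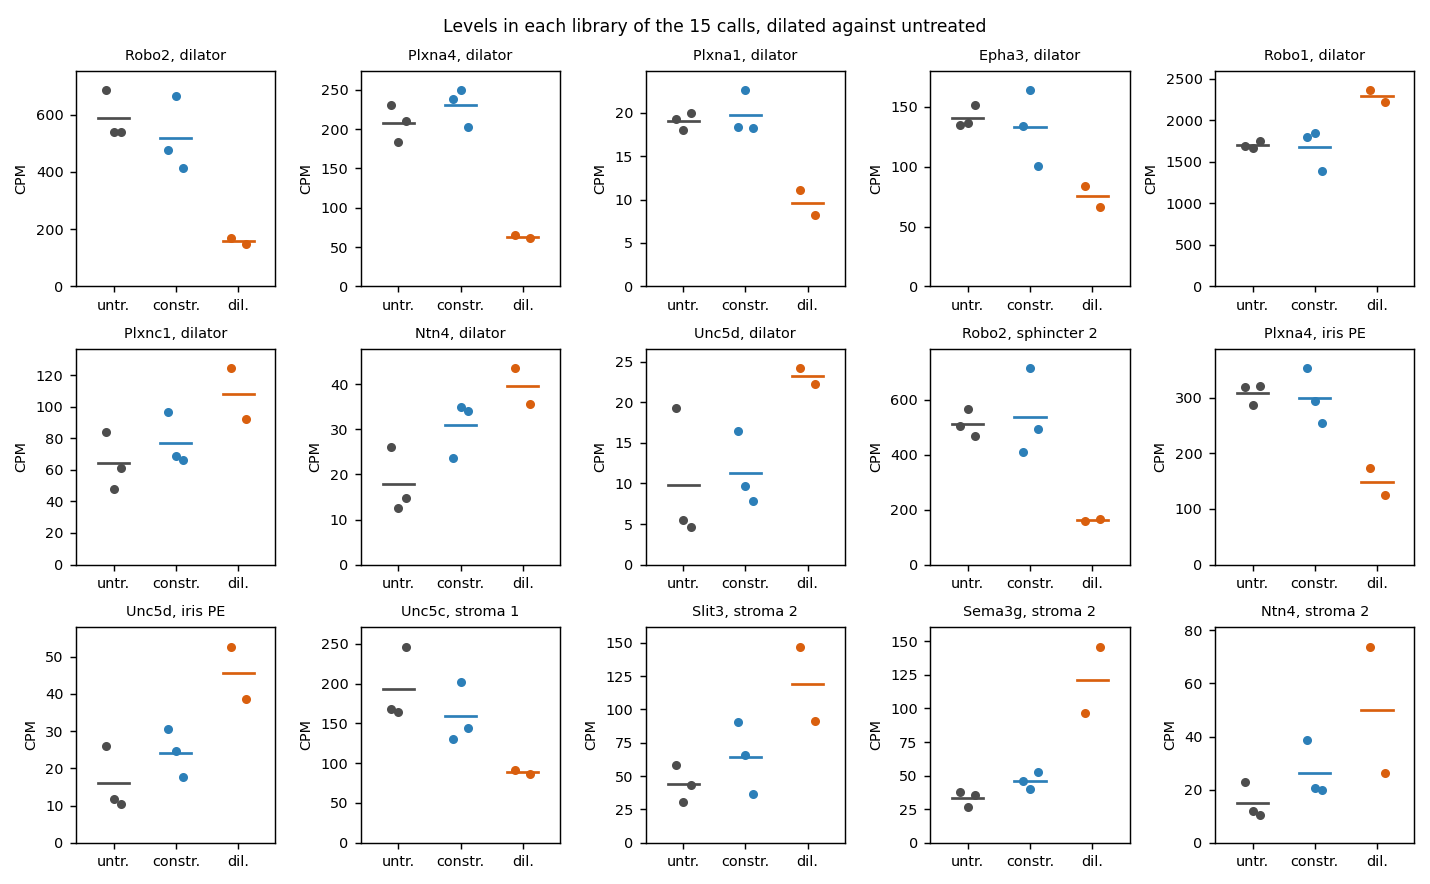
Level in CPM (linear axis from 0) of the 15 member and cell type pairs called between dilated and untreated irises. Points are libraries (3 untreated, 3 constricted, 2 dilated) and bars are group means. The dilated points lie outside the range of the untreated points in each panel, and these are the libraries that made the calls.

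Robo2 and Robo1 changed in opposite directions in dilator muscle. Robo2 stood at 685, 541 and 541 CPM in the untreated libraries and at 168 and 149 CPM in the dilated ones. The groups did not overlap, and the constricted libraries, at 475, 666 and 412 CPM, stayed above the dilated ones. Robo2 fell by 1.69 ± 0.20 (SE) on the log2 scale, 3.23-fold (adjusted p = 0.000187) and kept its call with any one library left out. The log2 ratio of CPM was -2.03 within library numbers 2 to 4 and -1.85 within 15 to 18. Robo1 was at 1684, 1670 and 1750 CPM in untreated and at 2361 and 2220 CPM in dilated dilator nuclei, a log2 change of 0.62 ± 0.15 (adjusted p = 0.0154). This call was close to the fold threshold. It was lost without untreated 1 (log2 change under the threshold, adjusted p = 0.0462), dilated 2 (0.0861), untreated 2 (0.0673) or untreated 3 (0.0543), and with libraries scaled by their total UMIs the log2 change was 0.43 (adjusted p = 0.0816). In dilator the composition factors of the fit raised every log2 change between dilated and untreated libraries by 0.19 over the ratio of CPM. The 2 genes lie on chromosome 16 (mm10, GENCODE M21), Robo1 at chr16:72308306-73046095 on the plus strand and Robo2 at chr16:73891839-74411825 on the minus strand, 845.7 kb apart.

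Robo2 also fell in sphincter 2, from 504, 566 and 468 CPM to 159 and 167 CPM, by 1.57 ± 0.25 on the log2 scale (adjusted p = 0.000262, against 2.87% of all genes called there). The groups did not overlap. It was the 1 call among 26 members tested in sphincter 2, and its log2 change stayed between -1.67 and -1.47 with any one library left out. Summed levels of Chrm3 and Syt1, markers of sphincter muscle, were also lower in dilated sphincter 2, at 1697 to 1974 CPM against 2373 to 3204 untreated. Of these 2 genes, 1 was below all untreated libraries in both dilated ones. The part of these levels in the result was not tested. In sphincter 1 Robo2 was at 323, 335 and 318 CPM untreated and 335 and 284 CPM dilated, with 1 dilated library above and 1 below the untreated ones (log2 change -0.04 ± 0.22, adjusted p = 0.993). In stroma 2, where Robo2 was highest, it was at 3000, 2695 and 3191 CPM untreated and 1804 and 1382 CPM dilated. Those groups did not overlap, but the change of -0.85 ± 0.21 missed the threshold (adjusted p = 0.0728). DESeq2 called it (adjusted p = 0.00571), as did edgeR with the runs of library numbers as a block (log2 change -0.87, adjusted p = 0.00586). The constricted libraries there stood at 2051, 2885 and 1940 CPM. In iris PE and CBE the Robo2 ranges overlapped. Its log2 change was -0.98 in stroma 1, -1.05 in leukocytes and -0.54 in CB, without a call. With the runs of library numbers as a block, edgeR called the fall in stroma 1 (log2 change -1.27, adjusted p = 0.0119).

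Slit3 was the Slit ligand called, and it rose in stroma 2 from 58.0, 30.7 and 43.0 CPM to 147 and 91.7 CPM, by 1.55 ± 0.32 on the log2 scale (adjusted p = 0.0281), with no overlap. The call was lost without dilated 1 (adjusted p = 0.156), constricted 2 (0.0624), untreated 2 (0.16) or untreated 3 (0.152), and with total UMI scaling (0.0515). In dilator Slit3 overlapped between the conditions, at 82.9, 42.2 and 52.8 against 55.4 and 41.3 CPM. Slit2 in dilator was at 430, 435 and 460 CPM untreated and 292 and 265 CPM dilated, and did not overlap. Its log2 change of -0.48 ± 0.14 passed on p (adjusted p = 0.0429) but not on size, and with total UMI scaling it was called (-0.67, adjusted p = 0.00923).

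**Figure D3:**
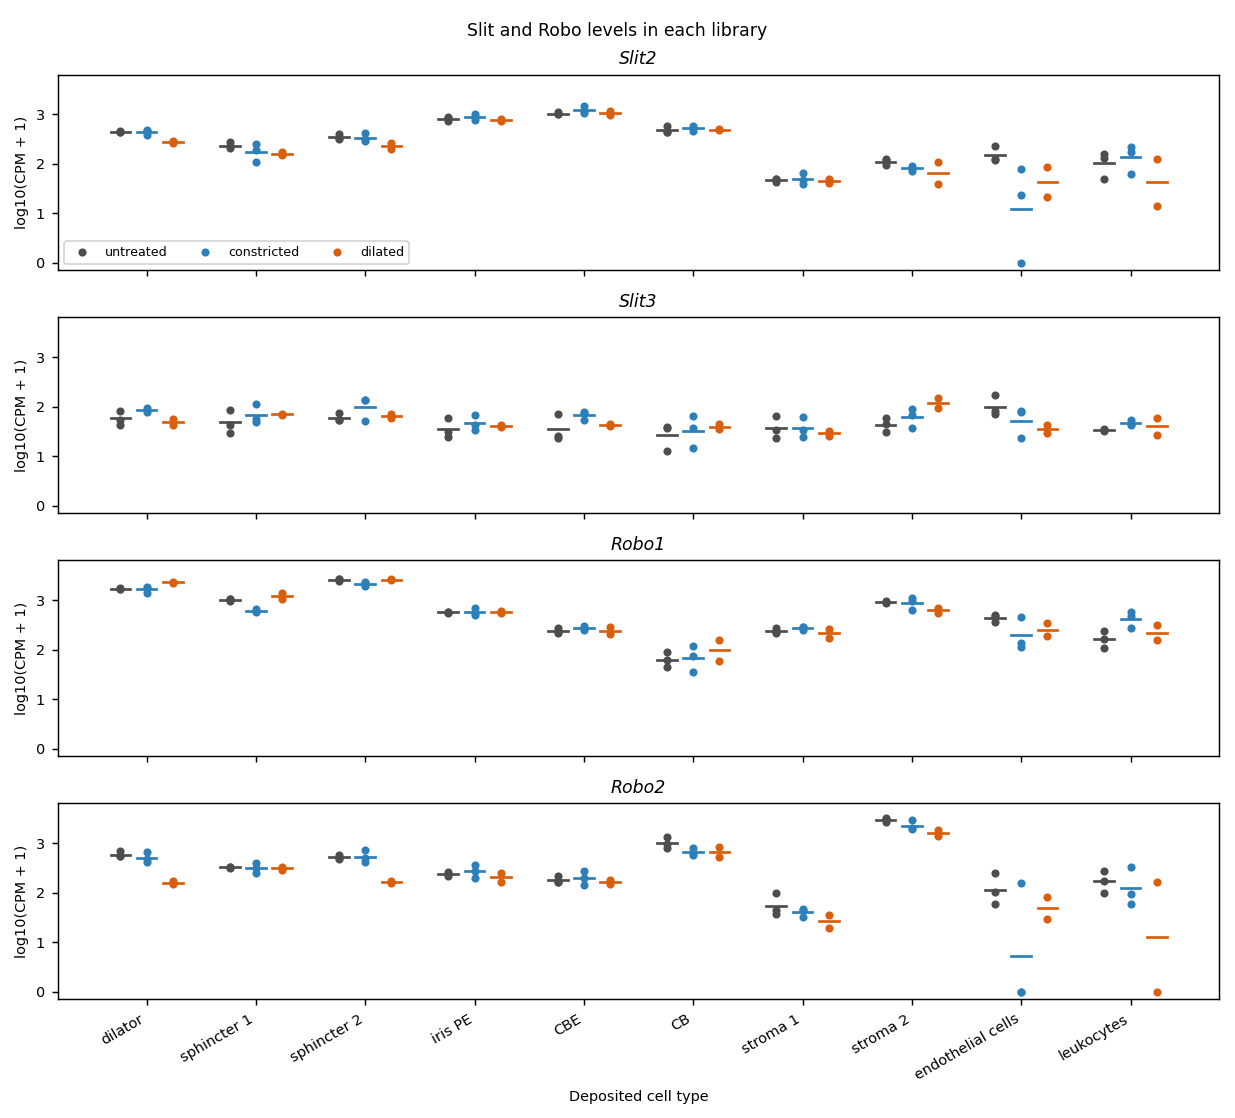
Levels of Slit2, Slit3, Robo1 and Robo2 as log10(CPM + 1) in each library, by cell type and condition. Points are libraries and bars are group means of the plotted values. Dilated Robo2 lies below the untreated libraries in dilator, sphincter 2 and stroma 2 and not in sphincter 1, and dilated Robo1 lies above them in dilator.

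Netrin 4 and the netrin receptor Unc5d were called higher in dilated than in untreated irises. In the same fits they were not called against constricted irises. Ntn4 stood in dilator at 26.2, 12.5 and 14.9 CPM untreated and at 43.5 and 35.7 CPM dilated. These groups did not overlap. The constricted libraries, at 23.6, 35.0 and 34.1 CPM, lay below the dilated ones, and 1 of them was within the untreated range. Ntn4 rose by 1.46 ± 0.26 on the log2 scale, 2.74-fold (adjusted p = 0.00242), and remained called with any one library left out. In stroma 2 it rose from 23.0, 11.9 and 10.5 CPM to 73.8 and 26.3 CPM, by 1.97 ± 0.41 (adjusted p = 0.0322). The 2 dilated libraries differed widely there, and the call was lost without dilated 1 (log2 change 1.07, adjusted p = 0.323), constricted 2 (0.0638), untreated 2 (0.182) or untreated 3 (0.236), and with total UMI scaling (0.0519). In iris PE, the layer next to the dilator, Ntn4 was at 20.1, 8.75 and 17.4 CPM untreated and at 7.62 and 5.14 CPM dilated, a log2 change of -1.12 ± 0.35 that missed the threshold (adjusted p = 0.263).

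Unc5d rose in dilator from 19.3, 5.49 and 4.59 CPM to 24.2 and 22.2 CPM, by 1.76 ± 0.44 on the log2 scale (adjusted p = 0.0178), and in iris PE from 25.9, 11.7 and 10.3 CPM to 52.7 and 38.7 CPM, by 1.77 ± 0.30 (adjusted p = 0.0212). Neither pair of groups overlapped. In both cell types untreated 1 lay nearest to the dilated libraries, and within library numbers 2 to 4 the log2 ratio in dilator was 0.32, against 2.14 within 15 to 18. The dilator call was lost without dilated 1 (adjusted p = 0.0639), dilated 2 (0.0639), untreated 2 (0.107) or untreated 3 (0.0998), and the iris PE call without the same libraries (0.149, 0.0538, 0.162 and 0.158). Unc5c, another netrin receptor, fell in stroma 1 from 169, 164 and 246 CPM to 91.8 and 86.7 CPM, by 1.12 ± 0.23 (adjusted p = 0.0234, against 1.17% of all genes called there), with no overlap. It was the 1 call among 28 members tested in stroma 1 and was lost without dilated 1 (0.161), dilated 2 (0.167) or untreated 3 (0.17).

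Of the plexins, Plxna4 and Plxna1 fell and Plxnc1 rose. Plxna4 stood in dilator at 231, 184 and 211 CPM untreated, at 238, 250 and 203 CPM constricted, and at 65.3 and 61.5 CPM dilated. The dilated libraries lay below all 6 others, and Plxna4 fell by 1.52 ± 0.15 on the log2 scale, 2.87-fold (adjusted p = 5.3e-05). The call remained with any one library left out. In iris PE it fell from 318, 286 and 322 CPM to 174 and 124 CPM, by 1.01 ± 0.17 (adjusted p = 0.0215), where 2 of 51 members tested and 0.595% of all genes were called. That call was lost without dilated 2 (adjusted p = 0.239), untreated 2 (0.0726) or untreated 3 (0.138). In CBE Plxna4 was at 96.1, 102 and 133 CPM untreated and at 56.1 and 41.9 CPM dilated, without overlap, but the change of -1.08 ± 0.26 missed the threshold (adjusted p = 0.257), and the constricted libraries there, at 65.0, 55.7 and 42.7 CPM, were low as well. Plxna1 fell in dilator from 19.3, 18.0 and 19.9 CPM to 11.1 and 8.22 CPM, by 0.79 ± 0.21 (adjusted p = 0.0239), and lost its call without dilated 1 (0.0651), dilated 2 (0.167), untreated 2 (0.0807) or untreated 3 (0.114). Plxnc1 rose in dilator from 84.2, 47.6 and 60.9 CPM to 124 and 92.2 CPM, by 0.98 ± 0.20 (adjusted p = 0.0069), and lost its call without dilated 1 (0.0631). Neither gene overlapped between the groups.

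Sema3g was the semaphorin called with dilation, and it rose in stroma 2 from 37.5, 26.3 and 35.7 CPM to 96.8 and 146 CPM. The groups did not overlap, and the constricted libraries were at 46.0, 39.8 and 52.5 CPM. The log2 change was 1.94 ± 0.23, 3.82-fold (adjusted p = 0.00294), and the call remained with any one library left out. In stroma 2, 3 of 53 members tested were called, against 1.73% of all genes. In endothelial cells, where Sema3g was highest, it was at 368, 215 and 150 CPM untreated and 170 and 330 CPM dilated, which overlapped. Endothelial markers were also higher in dilated stroma 2, where the list of 7 genes summed to 707 to 894 CPM against 258 to 378 untreated. Of the 7 genes, Cldn5, Flt1 and Erg were higher in both dilated libraries than in all untreated ones, with Cldn5 at 373 and 631 CPM dilated against 99.1 to 132 untreated, and Pecam1, Cdh5, Tek and Emcn overlapped. Cdh5 was at most 1.62 CPM in any stroma 2 library. The smooth muscle list summed to 748 to 904 CPM in dilated stroma 2 and to 186 to 695 CPM in untreated, and the fibroblast list, the cell type's own, to 2639 to 3373 and 3700 to 4384 CPM. The part of these levels in the stroma 2 results was not tested. Among Eph receptors 1 call was made: Epha3 fell in dilator from 135, 137 and 152 CPM to 83.9 and 66.7 CPM, by 0.73 ± 0.19 (adjusted p = 0.0221), without overlap. Its call was lost without dilated 1 (0.0611), dilated 2 (0.148), untreated 2 (0.0719) or untreated 3 (0.0929). In dilator itself the markers Adra1a and Nos1 summed to 709 to 741 CPM untreated and to 338 to 483 CPM dilated. By in situ hybridization, a different measure, the study found Adra1a transcripts in dilator muscle unchanged with dilation. The fibroblast list in dilator summed to 105 to 151 CPM untreated and 65.9 to 114 CPM dilated. Of 6 melanocyte genes, 5 were below all untreated dilator libraries in both dilated ones and 1 was above. Of 6 smooth muscle genes, 3 were below and 1 was above. In iris PE, 4 of the 6 melanocyte genes were below and 1 was above. The part of these levels in the dilator and iris PE results was not tested.

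**Figure D4:**
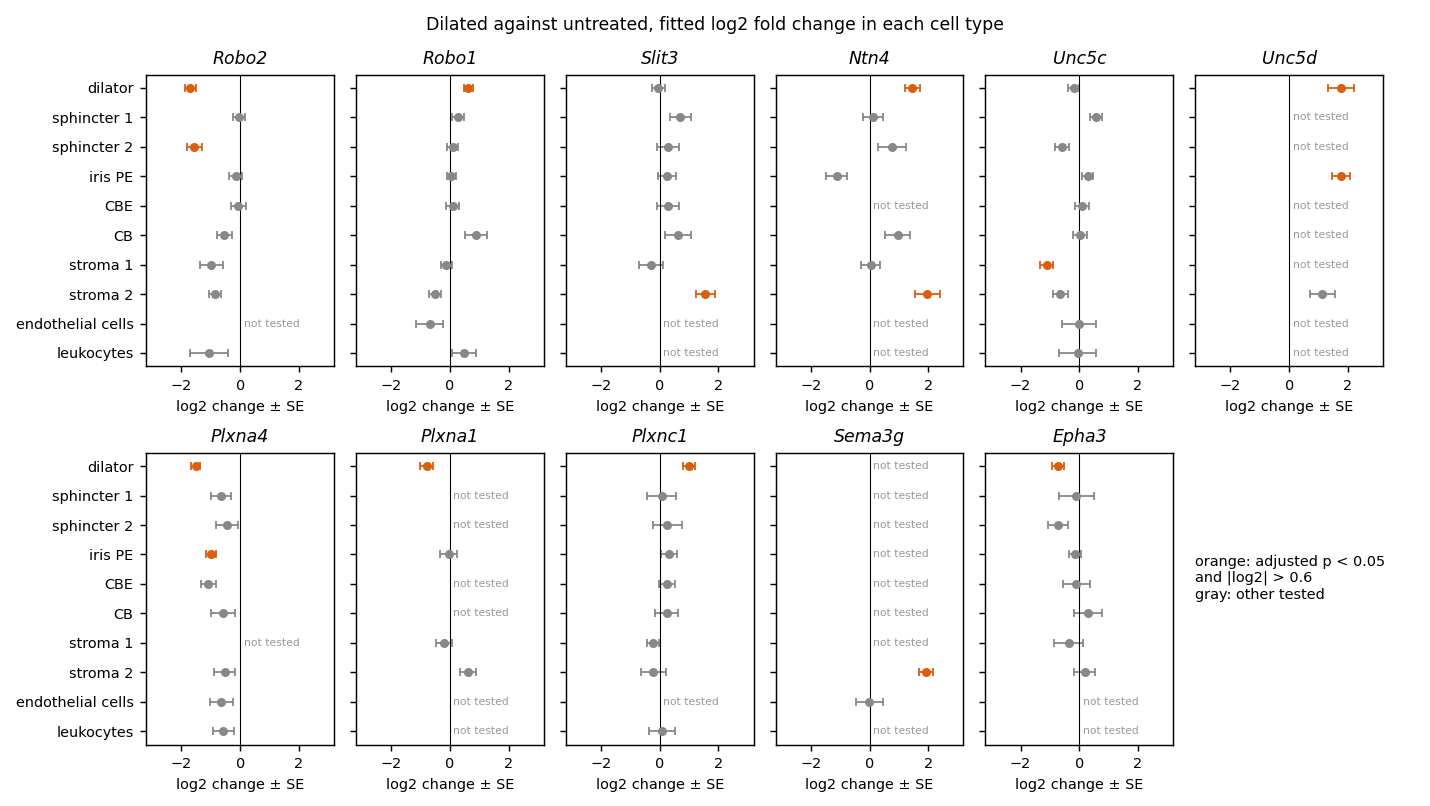
Fitted log2 fold change ± SE between dilated and untreated irises, by cell type, for the 11 members called in at least 1 cell type. Orange marks an adjusted p under 0.05 with a log2 change above 0.6 in size and gray the other tests; Robo2 is orange in dilator and sphincter 2, Ntn4 in dilator and stroma 2, and Plxna4 and Unc5d in dilator and iris PE.

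Promoter sequences of 4 members that rose with dilation are shown so that they can be compared for shared short motifs. They did not all rise in the same cell type: Plxnc1 rose in dilator, Slit3 and Sema3g in stroma 2, and Ntn4 in both. The RefSeq promoter table (GRCm38.p6) holds an entry of 300 bases, from 250 before to 50 after the annotated start, for 58 of the 68 members and for 8 of the 11 called with dilation, as 10 entries. These entries were searched on both strands for the cyclic AMP response element TGACGTCA (in 1.79% of all 32851 promoters), the AP-1 site TGANTCA (7.81%), the EGR site GCGNGGGCG (5.55%) and the serum response element known as the CArG box (1.63%). The EGR letters were in the Plxnc1 entry (chr10:94944796-94945095, minus strand) and in the Slit3 entry (chr11:35121206-35121505, plus strand), where capitals mark them; both matches lie on the opposite strand, so the capitals show the reverse complement of the letters. The Ntn4 entry (chr10:93640799-93641098, plus strand) and the Sema3g entry (chr14:31217623-31217922, plus strand) held none of the 4. The Robo1 entry held a CArG box, and the entries of Robo2, Unc5c and Epha3 held none of the 4. Each sequence runs 5′ to 3′ on the gene's strand.
Plxnc1: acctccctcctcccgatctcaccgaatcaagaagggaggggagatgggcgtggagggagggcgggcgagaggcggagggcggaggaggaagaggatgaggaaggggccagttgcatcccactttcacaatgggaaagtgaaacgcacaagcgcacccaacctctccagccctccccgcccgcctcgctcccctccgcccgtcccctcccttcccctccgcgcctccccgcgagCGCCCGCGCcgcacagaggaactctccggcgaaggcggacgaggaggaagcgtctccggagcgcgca
Slit3: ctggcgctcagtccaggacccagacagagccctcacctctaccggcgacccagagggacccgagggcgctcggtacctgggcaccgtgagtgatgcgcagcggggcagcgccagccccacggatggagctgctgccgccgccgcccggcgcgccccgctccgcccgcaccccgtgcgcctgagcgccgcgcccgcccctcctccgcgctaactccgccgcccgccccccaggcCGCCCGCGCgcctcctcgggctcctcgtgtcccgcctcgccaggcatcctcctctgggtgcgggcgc
Ntn4: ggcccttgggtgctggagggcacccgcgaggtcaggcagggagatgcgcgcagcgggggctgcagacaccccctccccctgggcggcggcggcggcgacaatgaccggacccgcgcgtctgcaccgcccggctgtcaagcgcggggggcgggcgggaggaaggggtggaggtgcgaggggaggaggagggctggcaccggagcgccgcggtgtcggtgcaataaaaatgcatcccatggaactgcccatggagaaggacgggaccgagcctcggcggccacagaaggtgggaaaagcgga
Sema3g: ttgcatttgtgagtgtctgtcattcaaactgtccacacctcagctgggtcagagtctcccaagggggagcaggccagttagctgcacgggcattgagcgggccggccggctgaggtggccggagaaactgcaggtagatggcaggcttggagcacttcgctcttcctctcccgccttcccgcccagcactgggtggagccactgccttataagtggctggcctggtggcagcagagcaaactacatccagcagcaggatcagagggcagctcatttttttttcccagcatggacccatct
A match of letters is a description, and the lack of one says nothing about the factor.

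In the edgeR fits above, no member was called with dilation in sphincter 1, CB, CBE, endothelial cells or leukocytes. There 1.95%, 0.0665%, 0.0122%, 0% and 1.32% of all genes were called. Sema3a was left out of the endothelial fit by the filter on low counts. It was called higher there by edgeR with a filter at a mean CPM of at least 5 (log2 change 3.93, adjusted p = 3.18e-07). With no filter it was also called (3.90, adjusted p = 8.63e-07). At an unadjusted p under 0.05 there were 7 members of 28 tested in sphincter 1, 4 of 29 in CB, 1 of 34 in CBE, 2 of 16 in endothelial cells and 3 of 14 in leukocytes, where 10.4%, 5.22%, 4.32%, 6.66% and 11.2% of all genes passed. DESeq2 called 1 in sphincter 1 and 0 in the other 4. The member closest to the threshold in sphincter 1 was Sema5a, at 618, 644 and 728 CPM untreated and 379 and 318 CPM dilated, with no overlap and a log2 change of -0.90 ± 0.24 (adjusted p = 0.0599). It was called by DESeq2 (adjusted p = 0.0376), and by edgeR with the runs of library numbers as a block (log2 change -0.88, adjusted p = 0.00108), with no filter on low counts (0.0144), with a filter at a mean CPM of at least 5 (0.0498) and without nuclei of shared barcodes (0.049). The list of 4 sphincter 1 markers was also lower in dilated sphincter 1, at 1124 to 1322 CPM against 2920 to 3704 untreated and 3545 to 6028 constricted. Ttn and Ctnna3 were the genes of this list below all untreated libraries, and Nptx2 was above them. The pigmented and ciliary epithelium list was higher there, at 2455 to 2523 CPM against 1441 to 1752 untreated and 1083 to 1715 constricted, with Pax6 and Zic1 above all untreated libraries. The part of these levels in the sphincter 1 results was not tested. Endothelial cells and leukocytes had the fewest UMIs, 26113 to 173881 and 30205 to 263916 per library.

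The effect of dilation was then compared between cell types in a joint fit of dilator with each other type, with a term for library. Of 445 tests 43 had an adjusted p under 0.05, against 5.07% of all genes tested. The counts were 15 of 58 members in stroma 2 (8.13% of all genes), 11 of 55 in iris PE (12.2%), 6 of 47 in sphincter 1 (6.71%) and 6 of 45 in stroma 1 (5.73%). CBE gave 3 of 51 (4.18%), CB 1 of 47 (3.06%), endothelial cells 1 of 50 (0.528%), sphincter 2 0 of 45 (2.1%) and leukocytes 0 of 47 (0.746%). A member could enter a joint fit through its counts in dilator alone: 264 of the 445 tests, and 41 of the 43, were of members tested in both cell types on their own. The exceptions were Ntn4 in CBE and Sema3a in endothelial cells, and in endothelial cells 12 of the 50 members were tested in both. The dilation effect on Robo2 differed from that in dilator in sphincter 1 (by 1.63 ± 0.21 on the log2 scale, adjusted p = 1.62e-09), iris PE, CBE, CB and stroma 2. The difference did not pass in sphincter 2, stroma 1 (0.73 ± 0.34, adjusted p = 0.249), leukocytes (0.62 ± 0.52, adjusted p = 0.916) or endothelial cells. For Ntn4 the effect in iris PE lay below that in dilator by -2.56 ± 0.27 (adjusted p = 4.36e-07). For Slit3 the effect in stroma 2 lay above that in dilator by 1.59 ± 0.22 (adjusted p = 0.000232), and for Robo1 the stroma 2 effect lay below by -1.12 ± 0.16 (adjusted p = 0.000334). Without untreated 3 the count was 24, and without the library term it was 6.

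Constriction was compared with the untreated state in the same fits, and edgeR called 0 of 331 tests, against 0.0118% of all genes. At an unadjusted p under 0.05 there were 41, or 12.4%, against 5.25% of all genes. DESeq2 called 1, Robo1 in sphincter 1, which stood at 1038, 1049 and 952 CPM untreated and at 648, 611 and 564 CPM constricted. These groups did not overlap, and edgeR gave a log2 change of -0.71 ± 0.18 (adjusted p = 0.206), or -0.75 ± 0.14 and a call (adjusted p = 0.0168) with the runs of library numbers as a block. Ntn4 in sphincter 1 was at 48.4, 36.7 and 37.9 CPM untreated and at 75.7, 66.6 and 69.7 CPM constricted, also without overlap (log2 change 0.88 ± 0.29, adjusted p = 0.514). Epha5 in stroma 1 was at 117, 134 and 165 CPM untreated and at 87.5, 95.6 and 48.1 CPM constricted (log2 change -0.88 ± 0.22, adjusted p = 0.719). With no filter on low counts, edgeR called Epha5 lower in constricted stroma 1 (-0.92, adjusted p = 0.0209) and stroma 2 (-0.90, adjusted p = 0.011). Members named in any of the comparisons without a call, and Robo1 and Sema5a in sphincter 1 below, were chosen after their values were seen.

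Dilated and constricted irises, the opposite states of the pupil, differed in 14 of 331 tests, 6 higher and 8 lower in dilated, or 4.23% against 2.65% of all genes. This comparison uses the same 2 dilated libraries as the one above. Of the calls against untreated irises, Ntn4 in dilator and stroma 2, Unc5d in dilator and iris PE, Slit3, Unc5c and Plxnc1 were not called here. With no filter on low counts, all of these but Unc5c and Ntn4 in dilator were called. In dilator 8 of 52 members were called, against 10.5% of all genes, in sphincter 2 and iris PE 1 each (2.45% and 0.672% of all genes), and in stroma 2 1 (0.532%). Plxna4 in dilator was lower in dilated irises (log2 change -1.69 ± 0.15, adjusted p = 4.04e-05), as was Robo2 in dilator (-1.53 ± 0.20, adjusted p = 0.00042) and in sphincter 2 (-1.63 ± 0.26, adjusted p = 0.000313). Sema3g in stroma 2 was higher (1.42 ± 0.23, adjusted p = 0.0231), a call lost without constricted 1 (0.0566), constricted 2 (0.123) or dilated 2 (0.0925). The other calls were Plxna4 in iris PE and, in dilator, Sema3b, Plxna1 and Epha3 (lower in dilated) and Robo1, Epha7 and Ephb1 (higher). Each of these 7 calls was lost when at least 1 single library was left out. Plxna4 in iris PE lost its call without dilated 2 (0.262), constricted 1 (0.071) or constricted 2 (0.0942), Sema3b without dilated 2 (0.084) and Plxna1 without dilated 1 (0.0645) or dilated 2 (0.167). Robo1 in dilator lost its call without dilated 1 (0.0518) or dilated 2 (0.0973), and without constricted 3 its change fell under the fold limit. Ephb1 lost its call without dilated 2 (0.139) or constricted 2 (0.0602). Epha7 kept its call in 2 of 8 such fits, those without untreated 1 or constricted 1, and Epha3 in 1 of 8, that without constricted 3. In sphincter 1, where 0 members were called against untreated, 3 of 28 were called against constricted, with 3.7% of all genes, beside the sphincter 1 and epithelium marker levels given above for the same libraries. Epha4 was at 319 and 210 CPM dilated and at 155, 54.5 and 119 CPM constricted (1.19 ± 0.30, adjusted p = 0.0254), with the untreated libraries at 285, 164 and 187 CPM. Its call was lost without dilated 1 (0.255), constricted 2 (0.0757) or constricted 3 (0.0528). Robo1 was at 1364 and 1041 CPM dilated, above the constricted libraries (0.99 ± 0.20, adjusted p = 0.00464, and 0.0926 without dilated 1). Sema5a was lower in dilated than in constricted libraries, which stood at 619, 1077 and 693 CPM (-1.17 ± 0.25, adjusted p = 0.00692, and 0.0519 without dilated 1 or 0.114 without dilated 2).

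Other genes of these pathways were followed in 2 lists. The lists were chosen with earlier results of these data known, so their shares beside those of all genes are a description. Of 20 other guidance and adhesion genes, 17 were tested in dilator, where 1 rose and 6 fell with dilation, 41.2% against 13.3% of all genes, and their median log2 change was -0.47 against 0.02 over all genes. The genes lower there were Nrcam, a cell adhesion molecule that binds neuropilins (-1.64 ± 0.34, adjusted p = 0.00684), Ntng1 (-1.63 ± 0.22, adjusted p = 0.000509) and Ntng2, netrin-G proteins anchored to the membrane, Rgma, a ligand of neogenin, and Flrt2 and Flrt3, which bind Unc5 receptors. Rtn4 rose. Ntng1 also fell in sphincter 2 (-1.15 ± 0.26, adjusted p = 0.00782), and Lrrc4c, which binds netrin-G1, fell in sphincter 1 (-1.18 ± 0.24, adjusted p = 0.0103). Of 39 intracellular effectors, 36 were tested in dilator, where 6 rose and 1 fell, 19.4% against 13.3% of all genes, with a median of 0.18. Srgap1, a GTPase-activating protein that binds Robo receptors, rose in dilator by 2.27 ± 0.20 (adjusted p = 2.79e-05) and in iris PE by 1.03 ± 0.18 (adjusted p = 0.0215). The others that rose in dilator were the kinases Limk2 (1.09 ± 0.15) and Rock2 (0.78 ± 0.17), the actin-severing Cfl1 (1.21 ± 0.19), the oxidase Mical2 (1.31 ± 0.37) and Dpysl3 (0.65 ± 0.14). The adaptor Nck2 fell by 1.00 ± 0.13.

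Of the 68 members, 18 overlap a gene on the opposite strand, among them Plxna4, Plxna1, Ntn4 and Unc5c. Whether the counting used strand is not given in the sources used here, and without it reads of the 2 strands cannot be told apart.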

How the data were processed

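Nuclei of 8 libraries (3 untreated, 3 constricted, 2 dilated) were profiled with a 10x Genomics 3′ kit. The authors aligned reads to the mm10 pre-mRNA index (introns included) with Cell Ranger 3.1.0, filtered and clustered nuclei with Seurat, named the clusters by immunostaining and in situ hybridization, and deposited raw UMI counts per nucleus with their cell type names. The percent of mitochondrial UMIs per nucleus, as deposited by the authors, was only checked. Whether the counting used strand is not given in the sources used here. Here, for every library, the UMIs of all nuclei of a cell type were added up, and these sums were tested with edgeR 4.0.16 (quasi-likelihood, TMM, filterByExpr) in 1 fit per cell type over all libraries, with Benjamini-Hochberg adjustment over all genes tested there. DESeq2 1.42.0, other filters and scalings, blocks and left-out libraries were alternatives. SE is the log2 change divided by the square root of F. Nuclei called doublets by Scrublet (341, 0.99%, with 8.53% of leukocytes, 7.02% of sphincter 1 and 6.23% of endothelial cells) were kept, and removed in an alternative. The scripts were tested on simulated data. Named members are called ones with 1 sign in every library pair (up to 5 for each comparison with the constricted libraries), the 3 with the largest lead in each cell type, and the member with most UMIs in each family. Members, lists and this rule were chosen with earlier results of these data known. Levels rest on 12 to 2567 nuclei per library and cell type.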

Additional observations from a re-analysis of the deposited data

Results flagged for a closer look

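The effect of dilation (log2 change, dilated against untreated) differed between dilator and another cell type in the joint fit, at an adjusted p under 0.05, for the members and cell types that follow, and each value is the effect in the other cell type minus that in dilator. Only members called with dilation in at least 1 cell type, and tested in both cell types on their own, are listed.

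Robo2, which fell in dilator, differed by 1.63 in sphincter 1, 1.56 in iris PE, 1.66 in CBE, 1.21 in CB and 0.85 in stroma 2. Robo1, which rose in dilator, differed by -0.54 in iris PE, -0.77 in stroma 1 and -1.12 in stroma 2. Slit3, their ligand, differed by 1.59 in stroma 2.

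Ntn4 differed by -1.41 in sphincter 1, -2.56 in iris PE and -1.40 in stroma 1. Unc5c differed by 0.79 in sphincter 1, 0.51 in iris PE and -0.93 in stroma 1.

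Plxnc1 differed by -0.65 in iris PE, -1.29 in stroma 1 and -1.10 in stroma 2. Plxna4 differed by 0.55 in iris PE, where it fell less than in dilator. Plxna1 differed by 1.44 in stroma 2, and Epha3 by 0.67 in iris PE and 0.99 in stroma 2.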

How the results depend on the processing

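Of the 15 calls of a member in a cell type (11 members) between dilated and untreated irises, all kept their direction under every alternative run, and 5 kept their call with each library left out in turn. The count was 26 with no filter on low counts, 28 with the library-number series as a block, and 6 to 18 with 1 library left out (6 without untreated 3, 7 without untreated 2). By cell type it was 4 to 9 in dilator with 1 library left out; in sphincter 1 it was 1 with DESeq2, no filter, a mean CPM of at least 5, the series block or nuclei of shared barcodes removed, and 0 to 1 with 1 library left out. It was 2 with no filter and 3 with the series block in sphincter 2, 0 to 3 with 1 library left out in iris PE, and 2 with the series block and 0 to 1 with 1 library left out in stroma 1. In stroma 2 it was 5 with DESeq2, 10 with no filter, 7 with the series block, 1 with total UMI scaling and 1 to 4 with 1 library left out, and in endothelial cells 1 with no filter or a mean CPM of at least 5 and 0 to 1 with 1 library left out. Between constricted and untreated irises it was 1 with DESeq2, 4 with no filter, 3 with a mean CPM of at least 5, 1 with the series block and 1 without doublets. Between dilated and constricted irises it was 23 with no filter and 5 to 16 with 1 library left out. The count of differing effects between cell types was 6 with no library term (no replicate block) and 24 to 50 with 1 library left out. The cause of these moves was not tested. Shares over all genes are not given for the alternative runs, so these counts are not read as a trait of the members.

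The replicate numbers were not used as pairs: same-numbered libraries correlated in their deviations in dilator at -0.033 to 0.43 (7 pairs from different groups). Libraries of the same run of library numbers correlated at 0.18 to 0.43 in 8 of 8 such pairs, and those of different runs at -0.43 to 0.087, above 0 in 2 of 13. Deviations from a group's mean are not independent of each other. With the replicate block the count between dilated and untreated irises was 19, with 2 in sphincter 2 and 5 in stroma 2, again without the share over all genes. Total UMI scaling and the removal of shared barcodes were chosen after seeing the data.

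Levels that changed order had overlapping ranges. The log2 ratio of Unc5c in CB to the next cell type was -0.10 over all 8 libraries, -0.019 as a mean over nuclei and -0.10 to 0.13 with 1 untreated library left out. That of Plxnd1 in leukocytes was -0.071 to 0.89 with 1 untreated library left out. That of Ntn4 in CB was -0.27 without doublets, -0.55 over all 8 libraries, -0.25 as a mean over nuclei and -0.90 to 0.32 with 1 untreated library left out, and untreated 1 gave the lowest value for all 3 genes. In endothelial cells 16 and in leukocytes 14 of the 68 members had counts high enough to be tested.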
